A study of Rattus norvegicus with 4 samples.

Results

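The plasminogen activator system was represented by 5 genes, Plat, Plau, Plaur, Serpine2 and Serpinb2, taken by gene symbol. The rule used no measured value, but the genes were chosen with earlier results of these arrays known. Every probe set (a group of short probes read together) annotated to exactly 1 of these symbols was used. That gave 7 probe sets of the 31099 on each array, and 5 of 14218 genes with a single-symbol probe set. Of the 5 genes, 4 were above the floor used here on at least 1 array, against 10885 of all genes.

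The cells were smooth muscle cells from the aorta of Sprague-Dawley rats, kept in culture. All of them were grown for 3 days in medium with serum, kept for 3 days without serum, and exposed for 24 h. The IL-1b group received 2.5 ng/mL of interleukin-1b, an inflammatory cytokine, and the IL-1b vehicle group received 10 mM acetic acid with 0.1% BSA (bovine serum albumin). The PDGF-DD group received 30 ng/mL of PDGF-DD, a platelet-derived growth factor, and the PDGF-DD vehicle group received 0.01% BSA. Each group was 1 array of 1 culture, so no spread between replicates exists, no test was run, and the number of arrays limits the precision of every value. Values are microarray intensities on a linear scale after rescaling of the arrays to a common trimmed mean. Intensities under the floor, 28.1, were treated as not measured, and folds against such a value are lower bounds. A difference was counted where it reached 2-fold. Fewer cells that carry a transcript and less transcript per cell cannot be told apart in such bulk samples.

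Plasminogen is an inactive serum protease that plasminogen activators cut to plasmin, which dissolves fibrin and breaks down other matrix proteins. Plat encodes the tissue-type activator (tPA), which works best on fibrin, and Plau the urokinase-type activator (uPA), which works on the cell surface when bound to its receptor uPAR, the product of Plaur. Serpine2 encodes protease nexin-1, a secreted inhibitor of thrombin, uPA, tPA and plasmin, and Serpinb2 encodes plasminogen activator inhibitor 2, which inhibits uPA and tPA and is found largely inside cells. In the arterial wall this system is known for its part in the migration of smooth muscle cells and in the turnover of their matrix. In human and mouse proteins, uPA and tPA also release the active form of the latent growth factors PDGF-D and PDGF-C.

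The promoters of the 3 genes other than Plat that were measured above the floor are shown because these genes had different patterns over the arrays. Each covers 250 bases before and 50 after the transcription start annotated by RefSeq in GRCr8, 5′ to 3′ on the gene's strand. Promoters were matched by symbol for 4 of the 5 genes, Plat not among them. Capitals mark AP-1 motifs (TGANTCA) in Plaur and Serpinb2 and GC boxes (GGGCGG on either strand) in Serpine2, with adjoining or overlapping boxes as 1 run.
Plaur, chr1:89181113-89181412, + strand: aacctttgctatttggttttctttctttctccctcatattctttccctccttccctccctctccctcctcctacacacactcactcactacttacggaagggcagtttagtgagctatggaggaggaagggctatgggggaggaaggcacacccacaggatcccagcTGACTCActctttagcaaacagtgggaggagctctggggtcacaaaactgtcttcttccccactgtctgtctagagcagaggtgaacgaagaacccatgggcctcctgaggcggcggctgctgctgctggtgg
Serpinb2, chr13:24055771-24056070, + strand: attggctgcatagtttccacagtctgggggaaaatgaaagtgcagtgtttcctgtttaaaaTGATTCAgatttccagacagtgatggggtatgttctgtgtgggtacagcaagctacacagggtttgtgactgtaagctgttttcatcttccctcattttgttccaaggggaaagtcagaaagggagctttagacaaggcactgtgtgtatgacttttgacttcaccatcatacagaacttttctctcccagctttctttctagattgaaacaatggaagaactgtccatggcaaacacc
Serpine2, chr9:88637153-88637452, - strand: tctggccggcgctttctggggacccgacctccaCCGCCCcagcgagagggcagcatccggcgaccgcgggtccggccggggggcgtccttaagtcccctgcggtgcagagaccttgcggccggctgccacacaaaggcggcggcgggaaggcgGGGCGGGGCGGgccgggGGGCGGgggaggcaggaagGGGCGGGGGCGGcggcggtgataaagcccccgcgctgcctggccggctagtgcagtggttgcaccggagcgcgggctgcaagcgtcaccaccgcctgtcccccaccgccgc

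The Plaur window held 1 AP-1 motif, TGACTCA, whose first base lies 83 bases before the start. The Serpinb2 window held 1, TGATTCA, 189 bases before it. An AP-1 motif was present in 7.33% of all 33469 promoter windows of the same length. The Serpine2 window held 6 GC boxes, 1 pair of which overlapped by a single base, and was 77% G and C, against a median of 51.7% over all windows. The Plau window held 3 GC boxes, and at least 1 was present in 33.1% of windows. A TATA box (TATAAA, in 14.2% of windows) and the NF-kappaB consensus (in 4.18%) matched none of these 4 windows on either strand. A match is a description of the letters and no measure of binding.

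The cultures carried smooth muscle transcripts, and the vehicle arrays differed from each other. All 7 smooth muscle markers were named, with 6, 7, 6 and 6 above the floor on the IL-1b, IL-1b vehicle, PDGF-DD and PDGF-DD vehicle arrays. Their summed intensity was 8453 with IL-1b and 27111 with its vehicle, and 4532 with PDGF-DD and 19890 with its vehicle. At least 2-fold lower than with the vehicle were 6 of 7 measured with IL-1b (median log2 ratio -2.04) and 6 of 6 with PDGF-DD (median -2.83). Of 5 endothelial markers, Pecam1, Vwf, Kdr and Tie1 were below the floor on all 4 arrays, and Tek was above it on 2. Among 6 leukocyte and macrophage markers, Ptprc, Cd68, Itgam and Csf1r were below the floor on all arrays, Lyz2 was above it with IL-1b, and Cd14 was above it on all 4, between 1117 and 1333. Of all genes, 10.5% were at least 2-fold apart between the PDGF-DD vehicle and IL-1b vehicle arrays, so measured members are given below against each vehicle. For the other genes of the system, mainly the IL-1b values are also set against the opposite vehicle. The 7 named reference genes were within 2-fold in every comparison of the arrays, some of them close to it. Hprt1 was 1.90-fold higher with IL-1b than with its vehicle. Gapdh was 1.63-fold higher with the PDGF-DD vehicle than with the IL-1b vehicle, and 1.996-fold by a further probe set.

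Plat was the activator transcript that could be measured, and it was high on the IL-1b array. Its intensity was 5121 with IL-1b and 289 with the IL-1b vehicle, and 644 with PDGF-DD and 1037 with the PDGF-DD vehicle. The IL-1b array was thus the highest of the 4 and its own vehicle the lowest. With IL-1b, Plat was 17.7-fold higher than with the IL-1b vehicle, which placed it 54th from the top among 10679 genes. With PDGF-DD it was 1.61-fold lower than with the PDGF-DD vehicle, which is under the 2-fold rule.

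The starting level of Plat differed between the vehicles. With the PDGF-DD vehicle it was 3.58-fold higher than with the IL-1b vehicle. Against the PDGF-DD vehicle, Plat with IL-1b was still 4.94-fold higher, the 83rd highest of 10522 genes. Against the IL-1b vehicle, Plat with PDGF-DD was 2.23-fold higher, so the direction for PDGF-DD turned with the vehicle. Set directly against each other, Plat was 7.95-fold higher with IL-1b than with PDGF-DD.

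Plau, the urokinase gene, was below the floor on every array by both of its probe sets. Probe set 1387675_at gave 2.85 with IL-1b and 6.34 with its vehicle, and 7.23 with PDGF-DD and 1.93 with its vehicle. Probe set 1398287_at gave 1.04 with IL-1b and 3.23 with its vehicle, and 7.95 with PDGF-DD and 4.90 with its vehicle. Values this far under the floor have no order, so Plau counts as not measured and no fold is given.

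**Figure D1:**
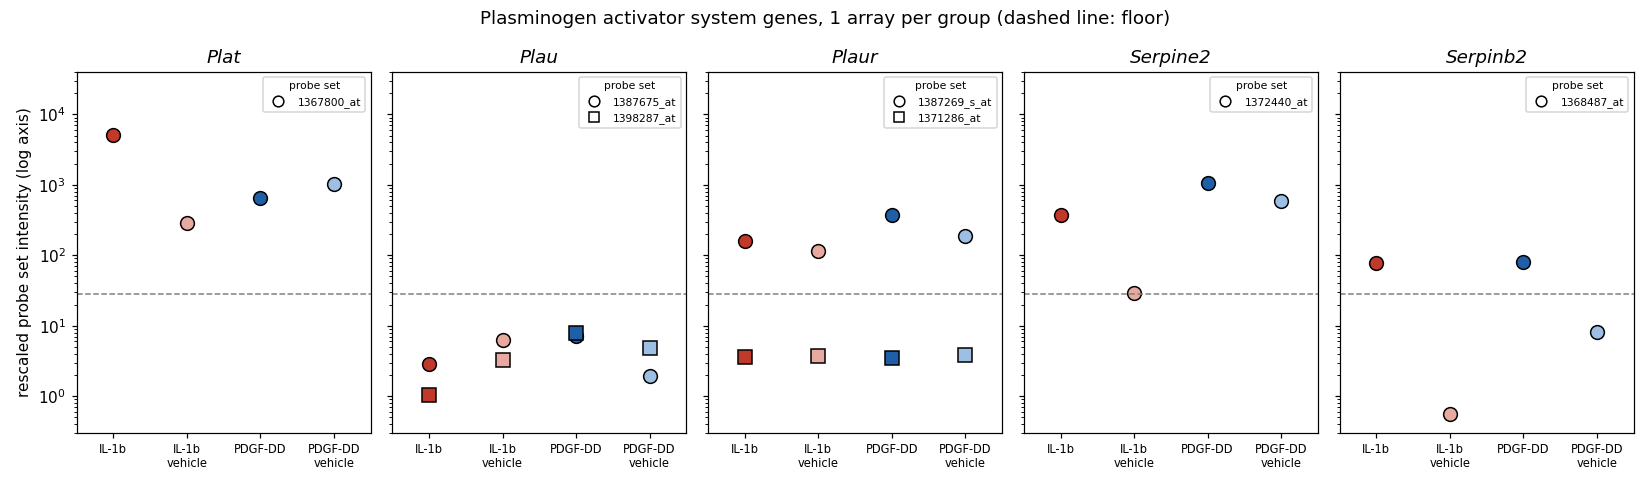
Rescaled intensity (log axis) of each probe set of the 5 genes on the IL-1b, IL-1b vehicle, PDGF-DD and PDGF-DD vehicle arrays, 1 point per array; circles mark the probe set that stands for the gene, squares any further one, and the dashed line the floor of 28.1. Plat was highest with IL-1b (5121), Serpine2 was beside the floor only with the IL-1b vehicle (29.3), and Plau lay below the floor on all 4 arrays; levels are compared within a probe set, not between panels.

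Plaur, the urokinase receptor gene, was highest on the PDGF-DD array. By probe set 1387269_s_at its intensity was 159.8 with IL-1b and 116 with the IL-1b vehicle, and 376 with PDGF-DD and 185 with the PDGF-DD vehicle. The other 3 arrays lay closer to each other than to the PDGF-DD array on the linear scale. With PDGF-DD, Plaur was 2.03-fold higher than with its vehicle, at the edge of the rule, and 410th from the top among 10142 genes. With IL-1b it was 1.37-fold higher than with its vehicle, within 2-fold.

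Against the opposite vehicles these values moved with the starting levels, which were 1.59-fold higher with the PDGF-DD vehicle than with the IL-1b vehicle. Plaur with PDGF-DD was 3.23-fold higher than with the IL-1b vehicle, and Plaur with IL-1b was 1.16-fold lower than with the PDGF-DD vehicle. With IL-1b it was 2.35-fold lower than with PDGF-DD. The second probe set, 1371286_at, read between 3.52 and 3.79 on all 4 arrays, below the floor, and so gave no second measurement.

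Serpine2, the protease nexin gene, was lowest by far on the IL-1b vehicle array. Its intensity was 376 with IL-1b and 29.3 with the IL-1b vehicle, and 1044 with PDGF-DD and 594 with the PDGF-DD vehicle. The IL-1b vehicle value lay just above the floor, whereas the other 3 arrays lay well above it. With IL-1b, Serpine2 was 12.8-fold higher than with its own vehicle, 70th from the top among 10679 genes. With PDGF-DD it was 1.76-fold higher than with its own vehicle, within 2-fold.

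The difference between the vehicles was larger than either of these. Serpine2 was 20.3-fold higher with the PDGF-DD vehicle than with the IL-1b vehicle, the fourth highest ratio of 10389 genes in that comparison (rank 4). Against the PDGF-DD vehicle, Serpine2 with IL-1b was 1.58-fold lower, so the IL-1b direction turned with the vehicle. Against the IL-1b vehicle, Serpine2 with PDGF-DD was 35.7-fold higher, at rank 6 of 10389 genes. With IL-1b it was 2.78-fold lower than with PDGF-DD, without reference to a vehicle.

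Serpinb2, the gene of plasminogen activator inhibitor 2, was above the floor with either factor and below it with either vehicle. Its intensity was 77.9 with IL-1b and 0.551 with the IL-1b vehicle, and 79.0 with PDGF-DD and 8.06 with the PDGF-DD vehicle. Both vehicle values are under the floor and cannot be ordered. Serpinb2 was at least 2.77-fold higher with IL-1b than with either vehicle, and at least 2.81-fold higher with PDGF-DD than with either vehicle. The arrays with a factor differed 1.01-fold. Serpinb2 and Plaur were the members at least 2-fold higher with PDGF-DD against its own vehicle. Of the 4 promoter windows available, that of Plat not among them, theirs are those with an AP-1 motif. This was noticed after the values were seen, and any link to them was not tested.

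**Figure D2:**
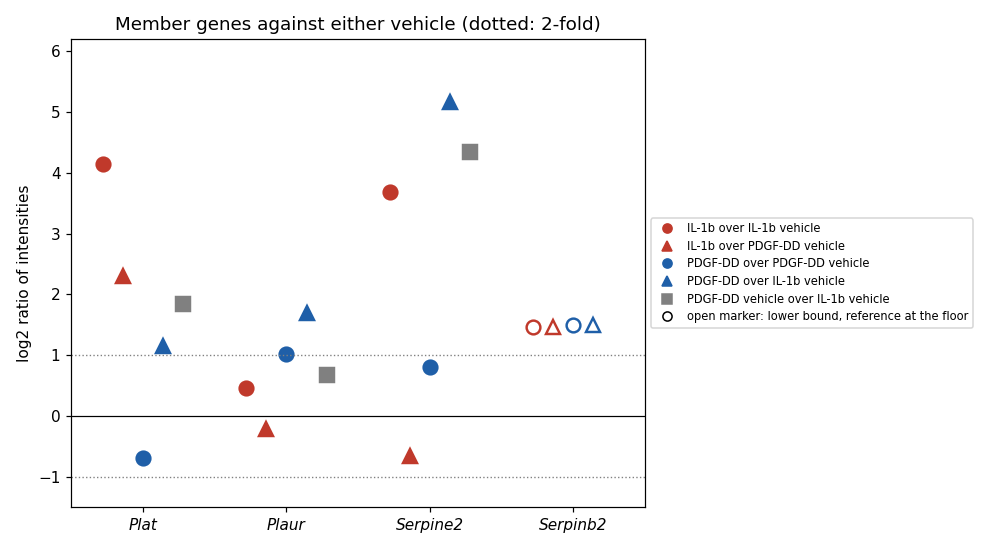
Log2 ratio of the 4 measured genes for IL-1b (red) and PDGF-DD (blue) over their own vehicle (circles) and over the opposite vehicle (triangles), and for the PDGF-DD vehicle over the IL-1b vehicle (grey squares), 1 array on each side; open markers are lower bounds and dotted lines mark 2-fold. Serpine2 with IL-1b stands at 3.68 over its own vehicle and at -0.66 over the PDGF-DD vehicle, whereas Plat with IL-1b is above 2-fold over both, at 4.15 and 2.30.

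Counted together, 3 of the 4 measured members reached 2-fold upward with IL-1b over its vehicle (Plat, Serpine2 and Serpinb2) and 0 lower, with a median log2 ratio of 2.58. Over all genes tested in that comparison, 6.15% were at least 2-fold higher and the median was 0.02. With PDGF-DD, 2 of 4 were higher than with its vehicle (Plaur and Serpinb2) and 0 lower, with a median of 0.92, beside 4.24% of all genes and a median of 0.01. Serpinb2 entered both counts only through the arrays with a factor, where it was above the floor, and so could not have counted as lower. Between the PDGF-DD vehicle and IL-1b vehicle arrays, 2 of 3 measured members (Plat and Serpine2) were higher, with a median of 1.84, beside 5.79% of all genes and a median of -0.05.

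Against the opposite vehicle, 2 of 4 members were higher with IL-1b (Plat and Serpinb2; 5.44% of all genes) and 4 of 4 with PDGF-DD (9.64% of all genes). Plat and Serpinb2 were the members at least 2-fold higher with IL-1b against both vehicles. For PDGF-DD these were Plaur and Serpinb2. Both vehicle values of Serpinb2 were set to the floor, so its bound was the same number against either vehicle. For Serpinb2 the opposite vehicle is therefore no second comparison. The comparisons share arrays, so their counts are not independent of each other.

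The log2 ratio of IL-1b over its vehicle minus that of PDGF-DD over its vehicle was 4.83 for Plat, 2.87 for Serpine2, -0.56 for Plaur and -0.02 for Serpinb2, the last a difference of bounds that gives no order. It was at least 1 for 2 of 4 members, beside 8.44% of 9936 genes. Compared directly, with IL-1b over PDGF-DD, 1 of 4 was at least 2-fold higher (Plat, beside 8.68% of all genes) and 2 were lower (Plaur and Serpine2, beside 7.09%). Serpine2 therefore had a positive difference of ratios and a negative direct ratio, -1.47 on the log2 scale.

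**Figure D3:**
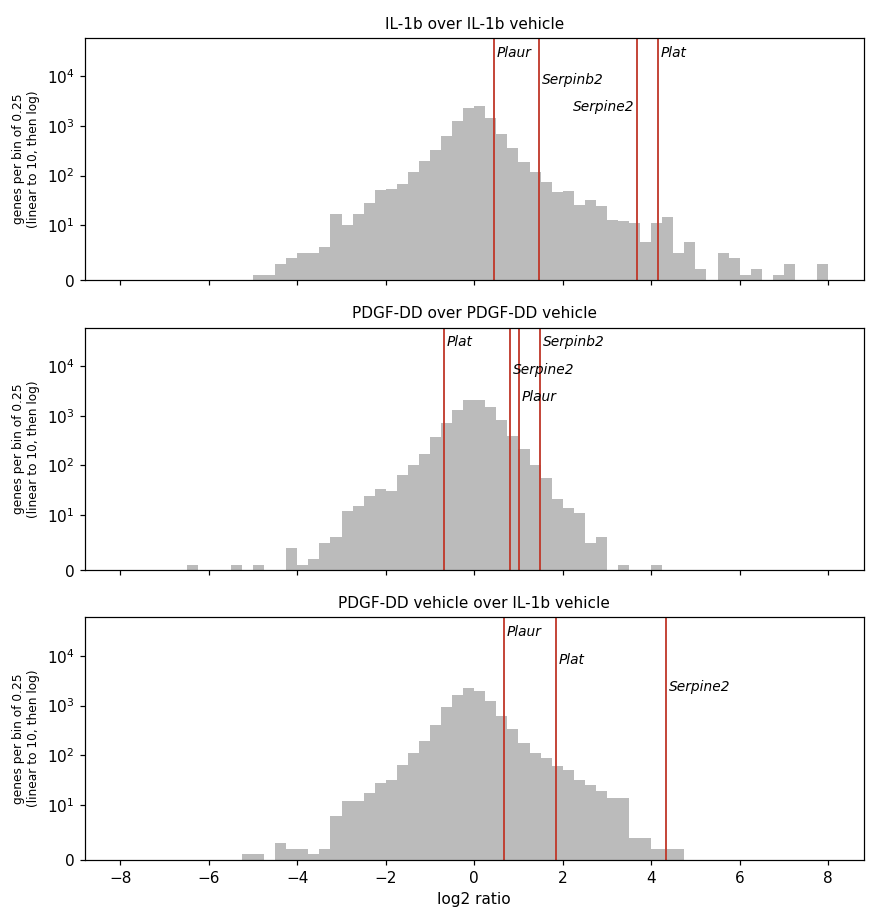
Number of genes per bin of 0.25 in log2 ratio (vertical axis linear to 10 and logarithmic above) for IL-1b over its vehicle, PDGF-DD over its vehicle and the PDGF-DD vehicle over the IL-1b vehicle, with red lines at the members. Plat (4.15) and Serpine2 (3.68) stand in the upper tail for IL-1b, the members for PDGF-DD lie between -0.69 and 1.49, and Serpine2 (4.34) is near the end of the vehicle distribution.

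Other genes of the system were described by role from a list of 38, of which 35 were named by a probe set and 23, 20 and 20 were measured in the IL-1b, PDGF-DD and vehicle comparisons. With IL-1b, 8 reached the rule upward and 5 downward against its vehicle (6.15% and 5.42% of all genes). With PDGF-DD 4 were higher and 3 lower than with its vehicle (4.24% and 4.67% of all genes). Between the PDGF-DD vehicle and IL-1b vehicle arrays 5 were higher and 3 lower (5.79% and 4.67% of all genes). The medians of the list were 0.26, -0.19 and 0.32 on the log2 scale in the same order.

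The substrate genes were not above the floor used here. Plg, which encodes plasminogen, and the fibrinogen chain genes Fga, Fgb and Fgg were below the floor on all 4 arrays. Plg read between 20.9 and 26.6, under the floor of 28.1 but above 8.06, the floor at the 20th percentile that was tried as an alternative. Plasminogen and fibrinogen are made mainly in the liver.

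Among inhibitors beyond the members, Serping1, which encodes the C1 inhibitor of complement and contact proteases, had an intensity of 460.4 with IL-1b and 17.0 with its vehicle, and 10.1 with PDGF-DD and 80.1 with its vehicle. With IL-1b its level was at least 16.4 times that with the vehicle, and with PDGF-DD it was at least 2.85-fold lower than with the vehicle. Against the PDGF-DD vehicle it was 5.75-fold higher with IL-1b. Its values with PDGF-DD and with the IL-1b vehicle were both under the floor, so no ratio is given between them. Neuroserpin (Serpini1), an inhibitor of tPA, was within 1.14-fold in all 3 comparisons, and its second probe set gave a log2 ratio of 0.43 for IL-1b over its vehicle, also within 2-fold. Serpina5, Serpinf2, A2m and Cpb2 were below the floor on all arrays.

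Plasminogen binds to cells through surface proteins, among them the annexin A2 complex, enolase and the plasminogen receptor Plgrkt. S100a10, the annexin A2 partner that binds plasminogen and tPA, had 3025 with IL-1b and 1375 with its vehicle, and 7058 with PDGF-DD and 3217 with its vehicle. It was 2.20-fold higher with IL-1b and 2.19-fold higher with PDGF-DD, and 2.34-fold higher with the PDGF-DD vehicle than with the IL-1b vehicle. S100a10 with IL-1b was 1.06-fold lower than with the PDGF-DD vehicle. Anxa2, Eno1 and Plgrkt stayed within 2-fold of the vehicle with either factor, although a second, dim probe set of Anxa2 gave a log2 ratio of 1.04 for PDGF-DD.

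Receptors that clear activators bound to their inhibitors include Lrp1 and the related Vldlr and Lrp8. Vldlr, the very low density lipoprotein receptor, had 778 with IL-1b and 3574 with its vehicle, and 622 with PDGF-DD and 3074 with its vehicle. Its log2 ratio over the own vehicle was -2.20 with IL-1b and -2.30 with PDGF-DD, and the vehicles were 1.16-fold apart. Its 3 further probe sets gave log2 ratios between -2.54 and -2.36 for IL-1b and between -2.32 and -1.89 for PDGF-DD. Against the PDGF-DD vehicle, Vldlr with IL-1b was 3.95-fold lower, so the direction held for either vehicle. Lrp1 had log2 ratios of 0.74 for IL-1b and -0.59 for PDGF-DD, both within 2-fold.

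Lrp8 had 109.8 with IL-1b and 25.9 with its vehicle, and 358 with PDGF-DD and 119 with its vehicle. Relative to the own vehicle it was higher by at least 3.91-fold with IL-1b and by 3.01-fold with PDGF-DD, and with the PDGF-DD vehicle at least 4.23-fold higher than with the IL-1b vehicle. Of the integrins that partner with uPAR, Itgav and Itgb1 stayed within 2-fold. Itgb3 had 109 with IL-1b and 256 with its vehicle, 2.35-fold lower, and 28.4 with PDGF-DD and 18.0 with its vehicle. Compared with the PDGF-DD vehicle, Itgb3 with IL-1b was at least 3.88-fold higher, so its direction turned, and Lrp8 with IL-1b was 1.08-fold lower. Vtn, which encodes vitronectin, a matrix ligand of uPAR, was below the floor on all arrays.

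Clotting genes tied to fibrin formation went both ways. F3, which encodes tissue factor, the starter of clotting, had 282 with IL-1b and 703 with its vehicle, and 344 with PDGF-DD and 1327 with its vehicle. It was 2.49-fold and 3.86-fold lower with IL-1b and PDGF-DD than with their vehicles, and 4.70-fold lower with IL-1b than with the PDGF-DD vehicle. Thbd, which encodes thrombomodulin, a thrombin receptor that turns it toward anticoagulation, had 1013 with IL-1b and 4999 with its vehicle, and 358 with PDGF-DD and 448 with its vehicle. Thbd was 4.94-fold lower with IL-1b than with its vehicle and 2.26-fold higher than with the PDGF-DD vehicle, so this direction turned with the vehicle.

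Procr, the endothelial protein C receptor gene, was 2.31-fold and 2.20-fold higher with IL-1b and PDGF-DD, and 2.44-fold higher with the PDGF-DD vehicle than with the IL-1b vehicle. Tfpi, which encodes the tissue factor pathway inhibitor, was 2.02-fold higher with IL-1b and 1.21-fold lower with PDGF-DD. Its second probe set gave a log2 ratio of 0.26 for IL-1b, smaller than 2-fold. Relative to the PDGF-DD vehicle, Procr and Tfpi with IL-1b were 1.06-fold and 1.08-fold lower.

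Among growth factors that plasmin or its activators process, Tgfb1 had 1201 with IL-1b and 449 with its vehicle, and 459.6 with PDGF-DD and 349 with its vehicle. It was 2.67-fold higher with IL-1b than with its vehicle and 3.44-fold higher than with the PDGF-DD vehicle, and with PDGF-DD it was 1.32-fold higher. Pdgfc had 29.1 with IL-1b and 82.3 with its vehicle, 2.83-fold lower. It had 64.5 with PDGF-DD and 27.1 with its vehicle, at least 2.30-fold higher. Set against the IL-1b vehicle instead, Pdgfc with PDGF-DD was 1.28-fold lower, within 2-fold. Relative to the PDGF-DD vehicle, the Pdgfc level with IL-1b, itself beside the floor, was raised by a factor of 1.04 or more. The direction of Pdgfc with PDGF-DD thus turned with the vehicle, though within 2-fold against the IL-1b vehicle. For IL-1b over the PDGF-DD vehicle both values lay beside the floor, so no direction is given. Pdgfd, the gene of the chain of the added factor, and Hgf were below the floor on all arrays.

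Of metalloproteinases whose precursors plasmin can activate, Mmp3 was at least 19.5-fold higher with IL-1b (547) than with its vehicle (9.95). Mmp13 was at least 10.1-fold higher with IL-1b (284) than with its vehicle (3.29). Both genes were below the floor on the other 3 arrays. Mmp9 had 39.95 with IL-1b and 0.742 with its vehicle, at least 1.42-fold higher, which is under the rule.

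**Figure D4:**
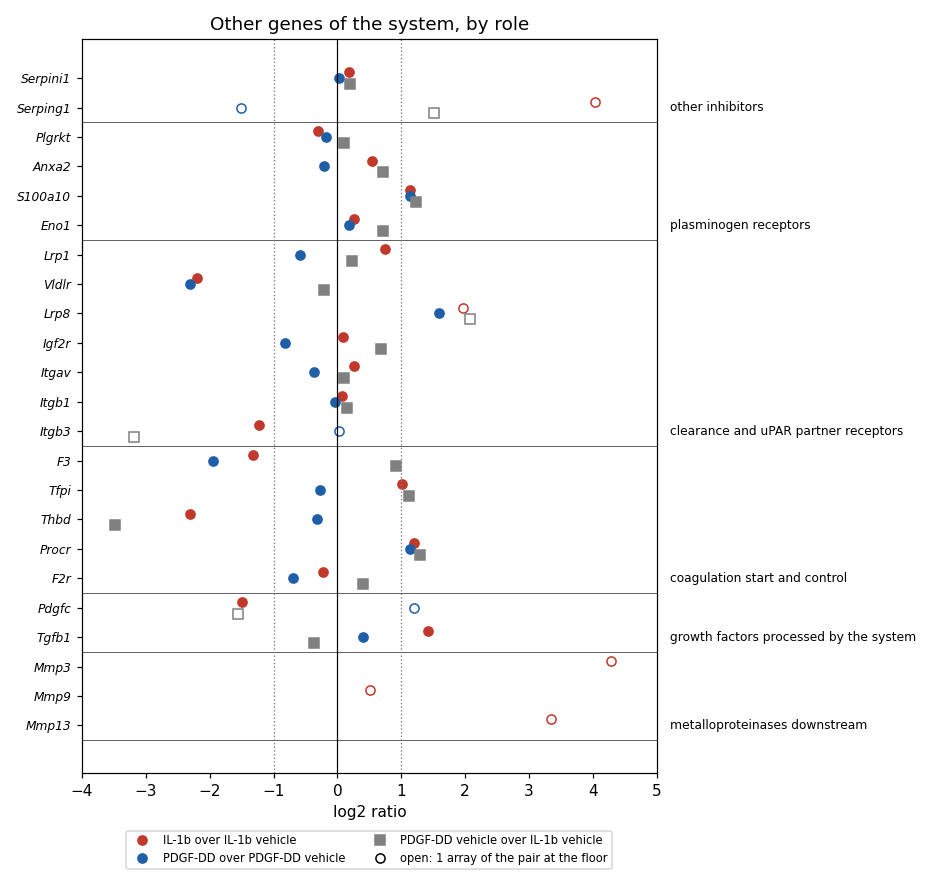
Log2 ratio of the 23 measured genes of the list, grouped by role, for IL-1b over its vehicle (red circles), PDGF-DD over its vehicle (blue circles) and the PDGF-DD vehicle over the IL-1b vehicle (grey squares); open markers have 1 array of the pair at the floor and dotted lines mark 2-fold. Vldlr lies near -2.20 and -2.30 for the factors with the vehicles at -0.22, whereas S100a10 and Procr lie between 1.13 and 1.29 in all 3 comparisons.

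Some transcripts of other cell types and of cell division also differed between the arrays. The summed intensity of the 4 fibroblast markers was 7765 with IL-1b and 2226 with its vehicle, and 651 with PDGF-DD and 1353 with its vehicle. Most of this sum with IL-1b was Lum (6041). Lum and Pdgfra had the signs of Plat, higher with IL-1b and lower with PDGF-DD than with the own vehicle. For Pdgfra with PDGF-DD the log2 ratio was -0.70, within 2-fold, and it was 0.74 over the IL-1b vehicle. Dpt was higher with IL-1b (log2 ratio of at least 5.52) and within 2-fold with PDGF-DD (0.63, and 0.38 by its second probe set). Pi16 had log2 ratios of 0.06 for IL-1b and -0.03 for PDGF-DD. Lyz2, a macrophage lysozyme gene, had 1305 with IL-1b and 28.0 with its vehicle. Of the other leukocyte markers, 4 were below the floor on all arrays and Cd14 had a log2 ratio of 0.25 for IL-1b and -0.13 for PDGF-DD. The summed intensity of 4 proliferation genes was 556 with IL-1b and 542 with its vehicle, and 6582 with PDGF-DD and 3666 with its vehicle, and Plaur and Serpine2 were likewise higher on both arrays of the PDGF-DD pair than on the IL-1b pair. The ratio of the 3′ to the 5′ beta-actin probe sets, a sign of RNA quality, was 2.05 with IL-1b and 1.58 with its vehicle, and 1.37 with PDGF-DD and 1.26 with its vehicle. The part of these transcripts, of the smooth muscle markers and of RNA quality in the members' values was not tested.

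Genes with the most similar pattern were found by the Euclidean distance between log2 intensities, each centred on its mean over the 4 arrays, among genes above the floor on the same arrays as the member. For Plat these were Rftn1 (distance 0.29), which encodes the lipid raft protein raftlin, the RNase gene Zc3h12a (0.36) and the matrix gene Fbln1 (0.48), out of 9164 genes. For Plaur they were the transcription elongation factor gene Tcea1 (0.09), the kinase gene Mapk6 (0.09) and Mdm1 (0.09). The values of Plaur itself spanned 3.23-fold from the lowest array to the highest.

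For Serpine2 they were Cd55 (0.47), which encodes an inhibitor of complement, Clu (0.99), which encodes clusterin, and the plakophilin gene Pkp1 (1.01). Cd55 had 282 with IL-1b and 28.5 with its vehicle, and 767 with PDGF-DD and 638 with its vehicle, and was likewise lowest with the IL-1b vehicle. For Serpinb2, with 63 genes above the floor on the same arrays, they were Npas2 (0.31), Klrk1 (0.46) and Etv1 (0.46). On both vehicle arrays Serpinb2 and all of these 63 genes were set to the floor, so their likeness there follows from the selection. With 4 arrays such a distance is a description of these arrays.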

How the data were processed

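The values are linear probe set intensities that the authors made with MAS5 and deposited, per the submitters' processing notes. No version or scaling target of MAS5 was given in the sources used, and detection calls were not used. Groups were taken from the sample titles. The arrays were rescaled to a common mean after trimming 2% at each end, by factors of 1.01, 1.03, 0.951 and 1.01 for IL-1b, IL-1b vehicle, PDGF-DD and PDGF-DD vehicle. Values under the 40th percentile of all values, 28.1, were set to it before log2 was taken. Of 31099 probe sets, 20832 had 1 symbol in a platform annotation of 2016, 436 had several and 9831 were not listed; 20764 matched a RefSeq gene of GRCr8. A gene (14218 in all) was read from its brightest probe set by mean log2. With 1 array per group no test was run; a rule of at least 2-fold was applied where either array exceeded the floor. The members and lists were chosen with earlier results of these data known. All 5 members, listed genes at least 2-fold from the vehicle with either factor, and the 3 nearest patterns per member were to be named; further list genes within 2-fold or below the floor, and single marker genes, were named after their values were seen. The steps were tested on simulated data (Python 3.11.15). Alternatives were the scaling, floor, probe set, fold and vehicle.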

Additional observations from a re-analysis of the deposited data

Results flagged for a closer look

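Plat was singled out because its difference from the vehicle had opposite signs with the factors. Its log2 ratio was 4.15 for IL-1b over the IL-1b vehicle and -0.69 for PDGF-DD over the PDGF-DD vehicle. The PDGF-DD value is less than 2-fold and its sign rests on the vehicle: the IL-1b vehicle gave 1.15 and the mean of both vehicles 0.23. With these the signs were not opposite. Each value rests on 1 array per side, and the difference between them was not tested.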

How the results depend on the processing

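Of 114 log2 ratios of members recomputed under the alternatives, 103 kept their side of the 2-fold rule and their sign where at least 2-fold, 8 changed sides and 3 that were at least 2-fold changed sign. Those 3 concern Serpine2 and the choice of vehicle. The choice of vehicle also turned Plat with PDGF-DD, which was within 2-fold at -0.69: the IL-1b vehicle gave 1.15 and the mean of both vehicles 0.23. For Serpine2, the log2 ratio for IL-1b was -0.66 with the PDGF-DD vehicle in place of its own. With vehicles exchanged, the difference of Serpine2 between the factors was -5.82. With the mean of both vehicles that difference was -1.47. Some of the 114 ratios could not change. Each measured member had only 1 probe set above the floor, so the probe set rule left its ratios as they were. Serpinb2, with both vehicles at the floor, kept its ratios when the vehicle was changed. Across the scalings, floors, the added constant and the probe set rule, Plat with IL-1b lay between 4.07 and 4.17 and Serpine2 with IL-1b between 2.81 and 3.75. Plat lay above every floor tried, so only the scalings and the added constant could move it. Serpinb2 ratios are set by the floor: they lay between 0.54 and 3.27 for IL-1b and between 0.56 and 3.29 for PDGF-DD.

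The count of members at least 2-fold from the PDGF-DD vehicle, 2 as reported, was 1 with the floor at the 50th percentile (Serpinb2 lost) and 1 with 16 added in place of a floor (Plaur lost). It was 4 at 1.5-fold, 0 at 3-fold and 4 against the IL-1b vehicle. The same count for IL-1b over its vehicle, 3 as reported, was 2 with the floor at the 50th percentile and 2 at 3-fold. Against the PDGF-DD vehicle it was also 2. Counts over all genes for IL-1b, PDGF-DD and the vehicles were 1236, 904 and 1087 as reported. They were 2293, 1650 and 2026 with the floor at the 20th percentile, 2673, 2537 and 2729 at 1.5-fold, and 576, 259 and 441 at 3-fold. Against the IL-1b vehicle the count for PDGF-DD was 2076. For the other genes of the system, 13 with IL-1b and 7 with PDGF-DD as reported, the counts were 6 and 3 at 3-fold. For IL-1b they were 8 against the PDGF-DD vehicle and 6 against the mean of both. Beyond the construction of each alternative, the cause was not tested. No paired analysis was possible because each group holds 1 array. Intensities near the floor limit Serpinb2, Plau and the IL-1b vehicle value of Serpine2.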
